A study of Mus musculus with 4 samples.

Results

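Regions of liver chromatin of at least 10 kb that were called as occupied by RNA polymerase II (Pol II) are described here. They were stitched from short windows and may bridge gaps between them. The members were chosen by their length alone, as all regions of the liver list on chromosomes 1 to 19 and X whose end minus start was 10000 bp or more. They number 4387 of the 61948 liver regions on these chromosomes, and the lists of all 4 organs hold 333094 regions. Hearts, kidneys, livers and lungs of C57BL/6 mice, 2 animals in the series, were snap frozen, fixed by crosslinking and sheared by ultrasound (PIXUL). The precipitating antibody, 4H8, recognises the C-terminal domain (CTD) of Pol II, and sequencing libraries were built by Tn5 transposase. The sources used here give no treatment, genotype, age or sex for the animals, and all groups share the same strain. Organ is what the labels give as differing between the groups. There is 1 list per organ, and the sources used here do not say whether it pools both mice. Values therefore have no measured spread between animals, and organs were compared without a test.

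Pol II is the enzyme that transcribes protein-coding genes, and the CTD is its long repetitive tail, which is phosphorylated in changing patterns from the start of a gene to its end. At most genes the polymerase gathers near the start, while on heavily transcribed genes it also occupies the gene body and the stretch past the end. The hepatocyte, the main cell of the liver, makes most plasma proteins, disposes of ammonia through the urea cycle, makes glucose and ketone bodies, and breaks down drugs with cytochrome P450 enzymes. The transcription factors HNF1, HNF4 and C/EBP are known to act at the promoters of many of these genes. In a whole organ, fewer cells of a type and less polymerase per cell cannot be told apart.

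Promoters of 5 genes in liver-only domains, those with no long counterpart in heart, kidney or lung, are shown first. They were picked to show the sequence letters counted further on and are not typical. Of the 24 promoters read for genes at least 50% inside the named liver-only domains, 17 held none of the HNF1, HNF4, C/EBP and TATA letters in the 200 bases before the start, among them Fgg, Apoe and Rbp4, whose domains are denser than that of Alb. Each run holds the 200 bases before the start of transcription, 5′ to 3′ on the gene's strand, from RefSeq on GRCm38.p6, the assembly behind mm10. Capitals mark matches on either strand to the letters GTTAATNAT (HNF1) or TTGCNNAA (C/EBP). Alb, the albumin gene, holds an HNF1 and a C/EBP match (chr5:90460670-90460869, plus strand). Fga, a fibrinogen chain, also holds both (chr3:83025953-83026152, plus strand). Fgb, another fibrinogen chain, holds a C/EBP match (chr3:83049864-83050063, minus strand). Ugt1a1, the bilirubin conjugating enzyme, holds an HNF1 match (chr1:88211759-88211958, plus strand). Azgp1, a secreted zinc-binding glycoprotein, holds neither (chr5:137981321-137981520, plus strand).
Alb: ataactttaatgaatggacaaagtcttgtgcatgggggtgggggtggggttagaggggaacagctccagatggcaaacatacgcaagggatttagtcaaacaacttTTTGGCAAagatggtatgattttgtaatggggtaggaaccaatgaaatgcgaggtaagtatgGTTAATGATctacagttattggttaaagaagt
Fga: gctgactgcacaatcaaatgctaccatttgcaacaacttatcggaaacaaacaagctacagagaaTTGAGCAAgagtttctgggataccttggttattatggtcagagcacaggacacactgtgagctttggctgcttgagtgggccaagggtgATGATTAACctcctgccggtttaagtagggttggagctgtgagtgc
Fgb: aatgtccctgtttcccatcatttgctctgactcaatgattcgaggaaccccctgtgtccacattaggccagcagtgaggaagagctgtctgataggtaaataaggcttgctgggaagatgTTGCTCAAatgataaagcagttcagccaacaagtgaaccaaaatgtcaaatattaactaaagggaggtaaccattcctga
Ugt1a1: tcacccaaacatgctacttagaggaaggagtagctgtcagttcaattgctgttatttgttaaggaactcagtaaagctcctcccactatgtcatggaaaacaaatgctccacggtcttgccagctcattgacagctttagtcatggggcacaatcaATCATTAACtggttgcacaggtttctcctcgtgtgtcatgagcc
Azgp1: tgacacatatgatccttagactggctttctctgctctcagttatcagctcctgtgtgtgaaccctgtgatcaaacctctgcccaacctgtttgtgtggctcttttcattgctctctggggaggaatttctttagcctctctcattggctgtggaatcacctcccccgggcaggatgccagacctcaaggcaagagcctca

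Mature microRNAs whose hairpins lie inside the domains follow, with the seed (bases 2 to 8) in capitals. They were chosen after the domains were seen. The first 3 come from a single liver-only domain, and miR-294-3p and miR-295-3p have the same seed. miR-192-5p and miR-194-5p come from neighbouring hairpins in a domain present in all 4 organs.
miR-291b-3p: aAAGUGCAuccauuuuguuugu
miR-294-3p: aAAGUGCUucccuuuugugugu
miR-295-3p: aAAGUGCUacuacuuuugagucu
miR-192-5p: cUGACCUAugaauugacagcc
miR-194-5p: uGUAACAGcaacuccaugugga
miR-101b-3p: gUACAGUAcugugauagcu
miR-29a-3p: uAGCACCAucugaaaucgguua
miR-22-3p: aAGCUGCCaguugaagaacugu

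The long domains were a small share of the liver list and held most of its Pol II signal. They made up 7.08% of liver regions, covered 111 Mb, and held 53.0% of the covered bases and 67.3% of the tags inside regions. Of all liver tags, 36.8% fell in them, compared with 20.4% in long kidney regions, 18.9% in long heart regions and 7.63% in long lung regions. Regions of any length held 55.1% of the tags in liver, 46.3% in heart, 44.1% in kidney and 32.1% in lung. The libraries thus also differed in the share of tags inside regions. The same length rule gave 3582 regions in kidney, 2480 in heart and 1800 in lung. The liver list rested on 20058183 tags, lung on 13296938 and heart on 9880184, with kidney between liver and lung, so depth differed between the lists. The caller's tag threshold also differed, at 14 in liver, 12 in kidney, 11 in lung and 9 in heart. On the scaled counts, the sparsest long region had 12.9 tags per kb in liver and 14.7 in kidney. In lung it had 15.8 and in heart 17.8, so the floor was lowest in liver. The part of depth, of this floor and of the share of tags inside regions in the number and length of long regions was not tested. Tag counts were scaled by the authors to 10000000 per library, and all tags given here are on that scale.

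Length and density describe the choice of members and support nothing beyond it. The median length was 17.6 kb, compared with 15.7 kb in kidney, 15.3 kb in heart and 14.0 kb in lung. Of the liver domains, 411 were 50 kb or longer and 60 were 100 kb or longer, where heart had 23 of the latter, kidney 12 and lung 0. The longest measured 338 kb. Tag density ran from 12.9 to 95.5 tags per kb with a median of 27.1, and the middle 80% of domains lay between 18.9 and 42.6. Shorter liver regions had a median of 15.0 tags per kb. Across the 4387 domains, length and density had a Spearman's rho of 0.46, where both come from the same library and the same caller. Of neighbouring long domains, 401 pairs lay at most 1000 bp apart, so a stretch of Pol II could count as more than 1 domain. Medians of density by length class were 24.4 tags per kb at 10 to 20 kb, 30.5 at 20 to 50 kb, 36.6 at 50 to 100 kb and 39.9 above. The shortest members were a 10000 bp domain in Sorbs2 (15.9 tags per kb), a 10001 bp domain over Foxn3 and Gm51999 (38.1) and a 10001 bp domain in Nav2 (32.3). Just below the rule lay a 9999 bp region in Rnf14 (15.9 tags per kb), a 9999 bp region over Hax1 and Ubap2l (25.9) and a 9997 bp region on chromosome 15 over no gene (30.9).

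**Figure D1:**
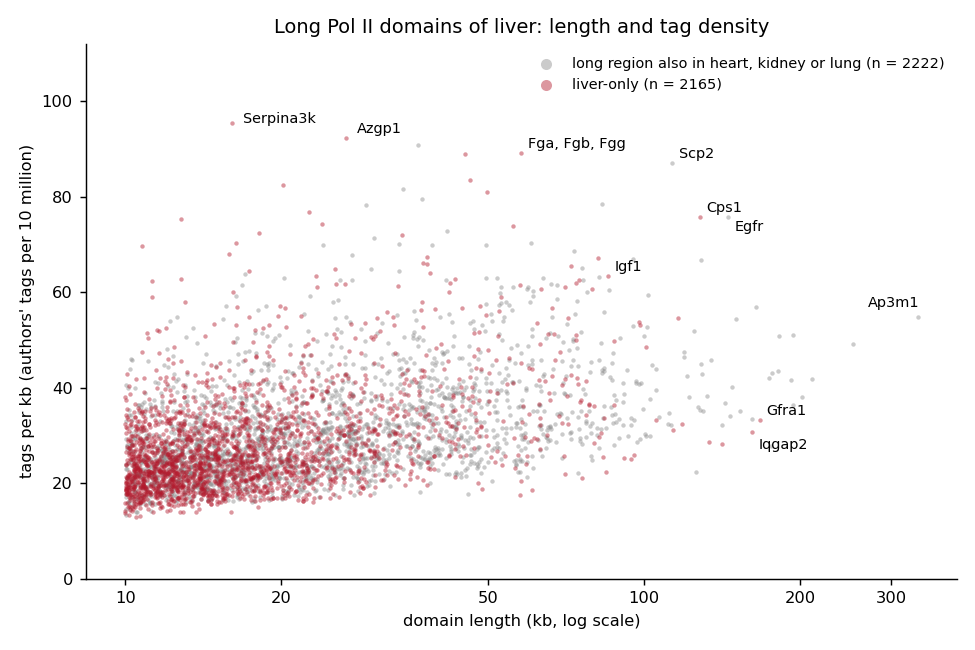
Each point is 1 of the 4387 long liver domains, by length in kb (log scale) and tags per kb (the authors' tags scaled to 10000000), with the 2165 domains lacking a long region in heart, kidney and lung in red and the other 2222 in grey. Serpina3k has the highest density at 95.5 tags per kb in 16.1 kb, Ap3m1 lies in the longest domain at 338 kb, and Cps1 combines 128 kb with 75.9 tags per kb.

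Marker genes of cell types were counted as a description and not as a test of the label. The marker lists were written with earlier results of these data known, and the domains were chosen by their length in liver. All 10 hepatocyte markers (Alb, Ttr, Apoa1, Apob, Serpina1a, Cps1, Fgb, Tat, Cyp2e1 and Hnf4a) had at least 50% of their span inside long liver domains, beside 13.9% of 21631 protein-coding genes. The same count was 0 of 5 for cholangiocytes, 1 of 6 for Kupffer cells and macrophages, 0 of 6 for liver endothelium, 0 of 6 for stellate cells, 0 of 4 for lymphocytes and 0 of 4 for erythroid cells. In lists of 4 to 6 genes, 0 or 1 is near what the 13.9% share would give. These counts therefore do not set the other cell types apart from all genes. The macrophage gene was Cd68, whose span was covered by long regions in all 4 organs. The Kupffer cell genes Clec4f, Vsig4 and Cd5l had no liver region of any length. Stab2, an endothelial scavenger receptor, had 21.9% of its span in long liver domains and Lyve1 49.1%. Of 20 cardiomyocyte genes 2 were in long liver domains (18 in long heart regions), of 20 proximal tubule genes 0 (14 in kidney), and of 20 lung epithelial genes 2 (10 in lung). A count of 2 of 20 is also near the 13.9% share. The cardiomyocyte pair was Pln and Atp2a2, which encode the regulator and the pump of the calcium store.

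Most domains lay over a single protein-coding gene. At an overlap of at least 1 bp, 2514 domains (57.3%) touched 1 protein-coding gene, 1431 (32.6%) joined 2 or more, 101 joined 5 or more, and 442 (10.1%) touched none. The shares joining 2 or more genes were 32.7% in kidney, 30.7% in lung and 29.6% in heart, so on this measure the liver domains were close to those of the other organs. The requirement that whole genes lie inside left 360 domains that join 2 or more. With genes of all types counted, 2353 of the 4387 domains joined 2 or more. Domains joining more genes were longer and denser, with medians of 16.7 kb and 25.8 tags per kb over 1 gene and 24.1 kb and 30.1 tags per kb over 3. The 912 domains over exactly 2 genes were split by the direction of the genes where the strand was known and neither gene lay inside the other, which left 632. Of these, 38.4% held genes in tandem, 30.7% convergent genes and 30.9% divergent genes, compared with 52.5%, 23.4% and 24.1% of all neighbouring protein-coding genes. Strand was missing for 248 of the pairs, the neighbours compared lie at any distance, and the difference was not tested.

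The domain with the most genes held 21 on chromosome 11 (120391368 to 120644543, 253 kb, 12433 tags, 49.1 tags per kb). It spans Gcgr, the glucagon receptor, P4hb, a protein disulfide isomerase of the secretory pathway, Slc25a10, a mitochondrial dicarboxylate carrier, Pcyt2, an enzyme of phospholipid synthesis, and Sirt7, a nucleolar deacylase. All 21 lay at least 50% inside. The other organs had the same stretch in pieces: their regions covered 82.3% of it in kidney, 67.9% in heart and 66.0% in lung. The longest piece was 64.8 kb in kidney, 27.9 kb in lung and 21.8 kb in heart. A 14-gene domain on chromosome 13 (87.6 kb, 38.5 tags per kb) held 13 histone genes, among them H1f2, H2ac4, H2bc3, H3c2 and H4c1, together with Hfe, which regulates iron uptake through hepcidin. Regions of any length covered 76.6% of it in kidney, 69.6% in lung and 54.1% in heart. A 13-gene domain on chromosome 9 (71.1 kb, 53.3 tags per kb) held the hyaluronidase genes Hyal1, Hyal2 and Hyal3 and the GTPase regulator gene Rassf1, and regions covered 98.1% to 99.4% of it in the other organs. An 11-gene domain on chromosome 7 (78.8 kb, 43.2 tags per kb) held Pnpla2, the adipose triglyceride lipase, Rplp2, a ribosomal protein, and Polr2l, a subunit of RNA polymerases. Among the 10-gene domains, the one over Hagh, Fahd1 and Igfals (66.6 kb, 54.9 tags per kb) was covered over 98.2% in kidney, 56.7% in heart and 33.0% in lung. Igfals encodes the liver-made subunit that carries insulin-like growth factor 1 in the blood. The domains with the most genes were thus mostly present in the other organs too, as shorter pieces in several cases.

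**Figure D2:**
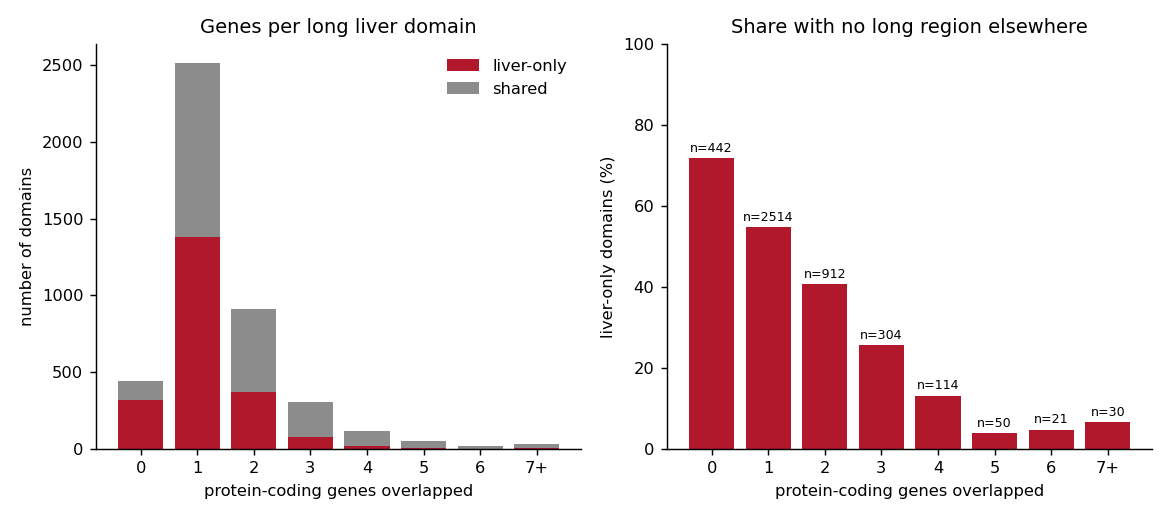
Left, the number of long liver domains by the number of protein-coding genes they overlap, with liver-only domains in red and shared domains in grey. Right, the percent of domains in each class that are liver-only, with the number of domains above each bar, which goes from 71.7% over no gene to 13.2% over 4 genes.

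Of the 4387 domains, 2165 (49.4%) had no region of 10000 bp or more at the same place in heart, kidney and lung, and these are called liver-only here. By the same rule 35.2% of long heart regions, 32.4% of long kidney regions and 18.4% of long lung regions had no long counterpart in the other organs. The liver list has the most long regions, and taking the 4387 longest regions of each organ instead left 1751 liver-only domains. A long region was present in kidney for 1821 domains (41.5%), in heart for 1071 (24.4%) and in lung for 903 (20.6%). By combination, 822 domains were shared with kidney alone, 500 with all 3 organs, 287 with heart and kidney, 212 with kidney and lung, 210 with heart alone, 117 with lung alone and 74 with heart and lung. Kidney was the most frequent partner, and it also has more long regions than heart or lung.

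Liver-only did not mean that the other organs lacked called Pol II there. Of the 2165 domains, 253 had no region of any length in the 3 other organs. Counting these, 478 domains were covered over less than 10% in each organ. A further 848 were covered over 10 to 50% in the organ with the most, and 839 were covered over 50% or more by shorter regions in at least 1 organ. Liver-only domains had a median length of 15.5 kb and 25.6 tags per kb, and shared domains 20.6 kb and 28.6 tags per kb. The share of liver-only domains was 58.0% at 10 to 20 kb, 40.4% at 20 to 50 kb, 28.8% at 50 to 100 kb and 16.7% above. It was also 71.7% for domains over no gene, 54.9% over 1 gene, 40.7% over 2, 25.7% over 3 and 13.2% over 4. A longer domain has more room to meet a long region of another organ, so part of this order follows from the rule.

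Cps1, which encodes the mitochondrial enzyme that fixes ammonia for urea, had the liver-only domain with the most tags. On chromosome 1 it ran from 67107744 to 67235863 (128 kb) and held 9720 tags at 75.9 per kb. It covered 100% of the 109 kb gene, passed it by 14.7 kb on the left and 4.60 kb on the right, and heart, kidney and lung had no region of any length in it. The domain of Alb (chromosome 5, 90401009 to 90473306, 72.3 kb, 4742 tags, 65.6 per kb) began 59.9 kb before the gene and stopped 3.30 kb short of its end. A second domain of 12.8 kb with 75.3 tags per kb began beyond a short gap, and together they held 95.9% of Alb. The only other-organ coverage of the first was 0.993% in kidney. The fibrinogen genes Fgg, Fga and Fgb lay whole in a domain of chromosome 3 (82998894 to 83056845, 58.0 kb, 5167 tags, 89.2 per kb), which reached 7.81% of Plrg1, a splicing factor gene. Regions covered 21.1% of this domain in kidney, 2.60% in lung and 2.03% in heart.

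Several other liver-only domains lay over genes of secreted proteins. Igf1, the growth factor that the liver releases under growth hormone, lay whole in an 85.1 kb domain with 63.5 tags per kb, and the pieces called there in the other organs were at most 1.13 kb long. The inter-alpha-trypsin inhibitor genes Itih1, Itih3 and Itih4 shared a 97.7 kb domain (53.9 tags per kb) with Mustn1, Stimate and Nek4, covered over 36.7% in lung, 11.6% in kidney and 11.1% in heart. F11, Klkb1 and Cyp4v3, which encode a coagulation factor, plasma prekallikrein and a fatty acid hydroxylase, shared 101 kb at 48.6 tags per kb. Ahsg, the fetuin-A gene, lay in 79.5 kb at 60.7 tags per kb that also took in 21.9% of Fetub. Plg, the plasminogen gene, lay in 49.8 kb at 81.1 tags per kb. The domain of Apoe, Apoc1, Apoc2, Apoc4, Tomm40 and the end of Nectin2 (46.3 kb, 83.5 tags per kb) was of a different kind, since shorter regions covered 59.2% of it in kidney, 50.5% in heart and 41.7% in lung, the longest being 9.58 kb in kidney. It therefore counts as liver-only by length and not by occupancy.

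The shortest of the 10 densest domains follow, and of the 10 only that of Serpina3k lay below the median length of 17.6 kb. Serpina3k, a plasma serine protease inhibitor, had 95.5 tags per kb over 16.1 kb, and Azgp1 had 92.4 over 26.7 kb. Rbp4, the plasma retinol carrier, lay with the last 16.2% of the neighbouring Ffar4 in 20.2 kb at 82.4 tags per kb. Serpina3k and Rbp4 had no region of any length in the other organs, and for Azgp1 the only one was a 0.5 kb lung region. Serpina3k has close paralogs, and the sources used here do not say what was done with tags that match more than 1 place, so its value is uncertain. The same holds for the P450 and Ugt1a genes below.

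Other liver-only domains of large extent ranged widely in density. Gfra1, a receptor for glial cell line-derived neurotrophic factors, had 167 kb at 33.2 tags per kb, from 4.16 kb before its start to 57.2 kb short of its end. Iqgap2, a scaffold protein of the hepatocyte cytoskeleton, had 162 kb at 30.7 tags per kb, from 2.85 kb before its start to 106 kb short of its end. Ttc39c on chromosome 18 carried a domain of 81.7 kb (67.1 tags per kb), and a second of 116 kb (54.7 tags per kb) beside it ran over Cabyr and Osbpl1a, an oxysterol-binding protein gene. Hsd17b2, which inactivates sex steroids, lay with Sdr42e1 in 98.5 kb at 53.1 tags per kb, with 9.86% covered in kidney and no region in heart or lung. The Ugt1a locus was split between 2 domains. The upstream domain, of 98.2 kb at 29.3 tags per kb, held the starts of Ugt1a6a, Ugt1a5 and Ugt1a2 and had a long kidney region in it. The liver-only domain over Ugt1a1 had 22.6 kb at 76.8 tags per kb, with shorter regions over 50.0% of it in lung and 36.7% in kidney. It counts among the 10-gene domains because the Ugt1a genes share their last exons.

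**Figure D3:**
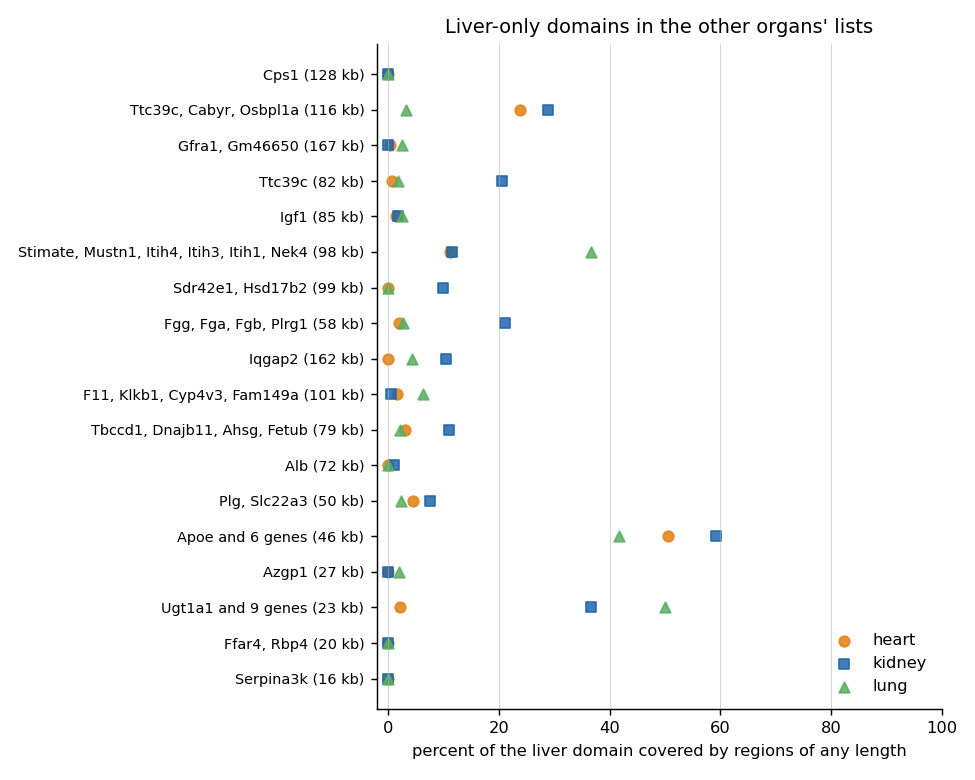
For 18 liver-only domains, ordered by tag count from Cps1 at the top to Serpina3k at the bottom, points give the percent of the domain covered by regions of any length in heart (circles), kidney (squares) and lung (triangles). Cps1, Rbp4 and Serpina3k sit at 0 in all 3 organs, while the domain of Apoe is covered over 41.7% to 59.2%.

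Of the 10 domains with the most tags, all but that of Cps1 had a long region in at least 1 other organ, in some cases a small one. The longest, on chromosome 14 (21022933 to 21360561), held 18507 tags at 54.8 per kb. It took in the 5′ part of Adk, the adenosine kinase gene (77.8% of its span), all of Ap3m1, a subunit of an adaptor complex for vesicle traffic, and 10.3% of Vcl. Long regions covered 13.5% of it in heart, 10.2% in kidney and 8.57% in lung, so a domain counted as shared could lack a long counterpart over most of its length. Egfr, the epidermal growth factor receptor, had 145 kb at 75.8 tags per kb, with 40.9% covered in kidney, 5.33% in lung and 2.51% in heart. Scp2, a sterol and lipid carrier of peroxisomes, had 114 kb at 87.1 tags per kb, with 92.4% covered in kidney. Zbtb16, a transcription factor gene induced by glucocorticoids, was covered over its whole 194 kb domain in heart (68.0 tags per kb in the heart region, 51.1 in the liver domain), over 96.7% in lung and over 68.4% in kidney. Rapgef4, a cyclic AMP sensor, had 129 kb at 66.8 tags per kb over the 3′ part of the gene, with 18.7% covered in heart, 5.99% in lung and 1.86% in kidney. Errfi1, a feedback inhibitor of the epidermal growth factor receptor, had 90.7 tags per kb over 36.7 kb and lay in long regions of kidney and lung. Abcc2, the bile canalicular exporter of conjugates, lay with Cutc, Cox15 and Dnmbp in 183 kb at 50.9 tags per kb, of which kidney covered 52.0%, lung 10.2% and heart 2.92%.

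Genes were then counted by function, from 10 lists of hepatocyte functions with 243 genes. At least 50% of the span lay in long liver domains for 207 of them (85.2%), beside 13.9% of all protein-coding genes. In kidney it was 39 (16.0%, beside 10.3%), in heart 25 (10.3%, beside 6.87%) and in lung 11 (4.53%, beside 4.72%). In liver-only domains it was 108 (44.4%, beside 3.78%). The median of the span in long liver domains was 100% over the 243 genes and 0% over all genes. The lists were written knowing which genes the liver expresses and with earlier results of these data known. Genes of 1 cluster also share a domain, so these counts are a description.

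Genes of plasma proteins were seldom in long regions of the other organs. Of 29 plasma carrier and protease inhibitor genes, 28 were in long liver domains and 24 in liver-only ones. Long regions of heart and kidney held 0 and those of lung held 1. The lung gene was Hp, haptoglobin, which binds free haemoglobin and was covered over 100% in long regions of both organs. Trf, transferrin (47.6 tags per kb), Serpinc1, antithrombin (55.3), and Gc, the vitamin D carrier (66.0), are examples from liver-only domains. The exception was Hpx, haemopexin, whose regions covered 93.9% of the gene without reaching 10000 bp. Of 28 coagulation and complement genes, 22 were in long liver domains and 17 in liver-only ones, and Cfb alone was in a long kidney region. F5, coagulation factor V, lay whole in 77.3 kb at 34.2 tags per kb, and C3, the central complement protein, in 59.6 kb at 60.7. F13b, Hc, C6, C9 and Cfi were among those under 50%, and of these C9 had 19.5% and Hc 85.7% of the span in liver regions of any length. Of 20 apolipoprotein and lipoprotein genes, 18 were in long liver domains and 9 in liver-only ones. Apob, the backbone of very low density lipoprotein, lay in 55.9 kb at 73.9 tags per kb, liver-only. Apoa1, Apoa4, Apoa5 and Apoc3 shared 151 kb at 54.5 tags per kb. Mttp, which loads lipid onto Apob, was under 50% (38.0%).

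Each of the lists of metabolic genes had members in long kidney regions too, in differing numbers. Of 26 urea cycle and amino acid breakdown genes, 25 were in long liver domains and 11 in liver-only ones. Kidney held 7, heart 2 and lung 1. Ass1, argininosuccinate synthase, was covered over 100% in both liver and kidney, while Arg1, arginase, Tat, tyrosine aminotransferase, and Tdo2, tryptophan dioxygenase, were liver-only at 63.4, 66.2 and 56.1 tags per kb. Otc, the urea cycle gene on the X chromosome, had 18.5% of its span in a long domain. Of 20 gluconeogenesis, glycogen and fructose genes, 15 were in long liver domains and 5 in liver-only ones, while kidney held 7, heart 3 and lung 0. Pck1, G6pc and Fbp1, enzymes that both organs use to make glucose, were at 100% in liver and kidney. Of 22 fatty acid oxidation and ketone genes, 20 were in long liver domains, 10 in kidney and 7 in heart, and 5 were liver-only. Ppara and Acsl1 passed 50% in liver, kidney and heart, and Hadha and Hadhb, the mitochondrial trifunctional protein, in liver and heart. Fatty acid and sterol synthesis had the smallest share of the 10 lists, 16 of 25 in liver, 2 in kidney and 7 liver-only. Fasn and Mlxipl were at 100%, while Scd1, Mvd, Mvk, Idi1, Lss and Dhcr7 had no long liver domain at all.

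Of 28 cytochrome P450 genes, 24 were in long liver domains and 18 in liver-only ones. Kidney and heart held 1 each and lung 2. Cyp2e1, which oxidises ethanol and paracetamol, lay in 38.8 kb at 64.1 tags per kb, Cyp8b1 of bile acid synthesis in 52.4 kb at 50.9, and Cyp7a1, its rate-limiting enzyme, in 22.4 kb at 36.8. Cyp2f2, a P450 of club cells and hepatocytes, was at 100% in liver and lung. Por, the reductase that feeds electrons to these enzymes, was at 100% in liver, 87.2% in kidney and 74.2% in lung. Of 26 liver transcription factor genes, 24 were in long liver domains and 6 in liver-only ones, while kidney and heart held 9 each and lung 6. Hnf4a had 82.6% in liver, in part in a domain of 83.0 kb at 78.5 tags per kb, and 65.3% in kidney. Onecut1 lay in a 202 kb domain, Nr5a2 and Prox1 in liver-only domains of 87.5 and 80.2 kb. Gata6 (0%) was under 50%. Of 20 hormone and growth factor receptor and signal genes, 16 were in long liver domains and 6 in liver-only ones. Asgr1 and Asgr2, the asialoglycoprotein receptor, were liver-only, Ghr was at 69.0% of 266 kb, and Thrb, Fgfr4 and Lepr were among those under 50%.

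Broadly expressed genes gave a different picture. Of 30 housekeeping genes, 16 were in long liver domains, 17 in kidney, 15 in lung and 13 in heart, and 0 were in liver-only domains. Actb, Gapdh, Eef2 and Hspa8 were at 100% in all 4 organs. Of 26 immediate early and stress genes, 9 were in long liver domains, compared with 14 in each of heart, kidney and lung. Klf6 and Ier3 were at 100% in long regions of heart, kidney and lung and at 0% in long liver domains, although shorter liver regions covered 59.0% and 100% of them. Of 20 clock and clock output genes, 9 were in long liver domains, 9 in kidney, 7 in heart and 6 in lung. Dbp, Per1 and Nr1d1 were at 100% in all 4, and Arntl, Clock and Npas2 were in none.

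**Figure D4:**
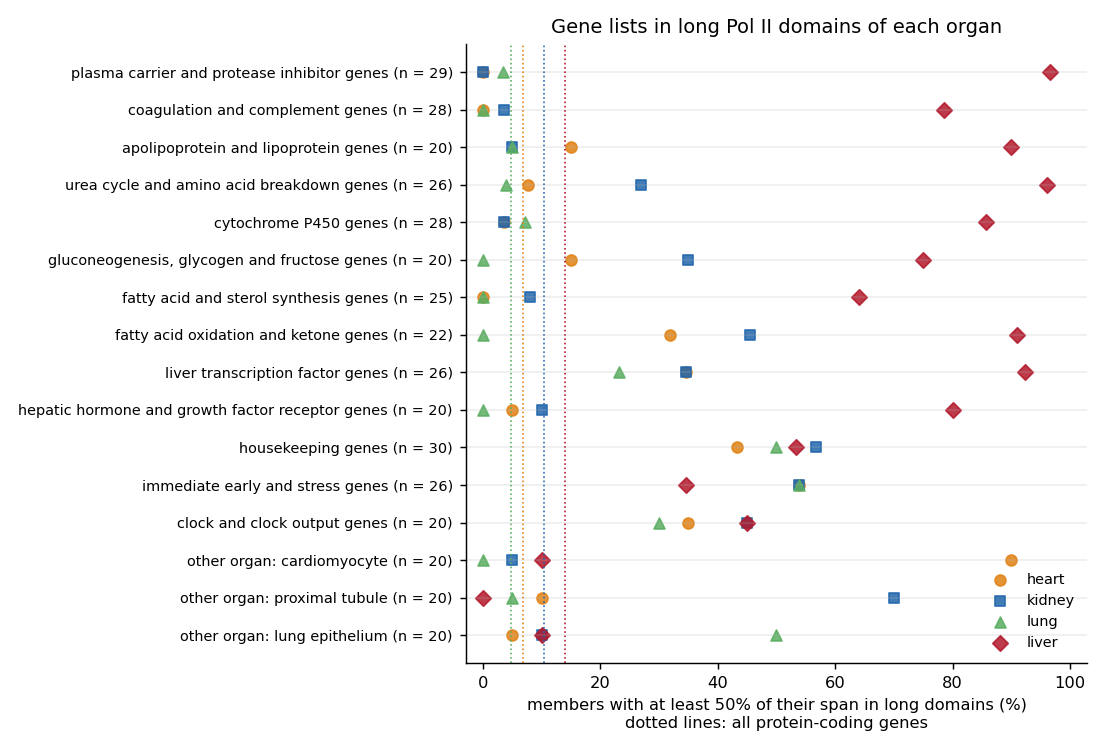
For each gene list, points give the percent of members with at least 50% of their span in long regions of heart (circles), kidney (squares), lung (triangles) and liver (diamonds), and dotted lines the same percent of all protein-coding genes (13.9% in liver, 10.3% in kidney, 6.87% in heart, 4.72% in lung). The 10 hepatocyte function lists lie at 64.0% to 96.6% in liver, while in liver housekeeping genes lie at 53.3%, clock genes at 45% and immediate early genes at 34.6%.

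These shares differed with the span of the gene. In liver, 15.0% of genes under 5 kb, 22.6% of genes of 5 to 10 kb, 17.2% of genes of 10 to 20 kb and 12.3% of genes of 20 to 50 kb passed 50%. The share was 8.99% at 50 to 100 kb and 4.45% above, and the liver share exceeded that of each other organ in every class of span. Where domains met genes of known strand (4099 genes), both gene ends lay in long domains for 48.8%, the start alone for 31.4%, the end alone for 13.1% and neither for 6.64%. Both ends were inside for 42.3% in kidney and 40.9% in heart, and for a smaller share in lung. Next, 244 genes of known strand lay whole in a domain with no other protein-coding gene. The domain passed their end by a median of 5.44 kb. The part past the end was longer than that before the start for 129 of them (52.9%). The domain reached 10 kb or more before the start for 60 and past the end for 44. Non-coding genes in these domains were not excluded, so the stretch past an end can hold another gene. The share with the longer part past the end was 69.1% of 110 genes in heart, 61.1% of 72 in lung and 59.9% of 137 in kidney. Foxa2, a pioneer factor of the liver, stood out with 118 kb past its end and 2.99 kb before its start. In lung the long region over Foxa2 measured 14.2 kb and reached 8.05 kb past the end. Arl4d followed with 54.5 kb, Slco1a1, an organic anion transporter, with 43.5 kb, Olfr541, an olfactory receptor gene in a liver-only domain, with 33.1 kb, and Cebpa, the gene of a C/EBP factor, with 32.1 kb past the end.

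The 442 domains without a protein-coding gene had a median length of 14.3 kb and 29.0 tags per kb, and 71.7% were liver-only. Of these, 222 overlapped a long non-coding RNA gene, and 188 overlapped no annotated gene of any type. Their median distance to a protein-coding gene was 26.2 kb, and 94 lay within 10 kb of one. The domains named here were chosen by tag count after the data were seen. The largest, on chromosome 6, spanned Lncpint, Mir29a and Mir29b-1 (182 kb, 7929 tags) and was covered over 91.4% to 99.3% in the other organs. A liver-only domain on chromosome 16 (24029025 to 24101513, 72.5 kb, 42.7 tags per kb) lay 40.2 kb from the start of Bcl6, a transcriptional repressor, with 31.4% covered in kidney, 14.8% in lung and 0% in heart. A domain of 43.2 kb on chromosome 15 (82677219 to 82720444) at 62.7 tags per kb held only pseudogenes of the Cyp2d family and had no region in the other organs. Domains were sparse on the X chromosome, with 26 domains or 2.69 per 100 protein-coding genes, where the autosomes had 12.3 (chromosome 7) to 29.4 (chromosome 19).

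Of 1005 microRNA hairpins in the RefSeq table, 161 (16.0%) lay in long liver domains, of which 36 (3.58%) were in liver-only ones. Of protein-coding genes, 13.9% and 3.78% had at least 50% of their span there. The hairpin shares in liver were thus near those of genes. Kidney held 161 hairpins (16.0%, beside 10.3% of genes), heart 116 (11.5%, beside 6.87%) and lung 73 (7.26%, beside 4.72%). Of the Mir290 cluster, known from early embryos and embryonic stem cells, 8 hairpins lay in a 26.6 kb liver-only domain over Nlrp12 (42.6 tags per kb), and no other organ had a region there. The domain gives Pol II over the locus and no measure of the mature microRNAs. Mir101b lay in a liver-only domain of 52.0 kb over Rcl1 at 45.8 tags per kb, with 41.8% covered in kidney. Mir192 and Mir194-2, known for expression in liver and kidney, lay in a 35.1 kb domain over Atg2a and Ehd1 that was covered over 89.3% to 96.1% in the other organs. Mir22 lay in a domain of 95.2 kb with Serpinf2 and Prpf8 at 53.0 tags per kb. That domain also reached part of Serpinf1, of which 70.1% lay in liver-only domains.

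Promoter sequences were then searched for letters known from liver promoters, in the 250 bases before the start. The promoter table held 17274 of the 21631 genes. The HNF1 letters stood in 20 of 661 promoters of genes at least 50% inside liver-only domains (3.03%, exact binomial 95% interval 1.86 to 4.63%). They stood in 15 of 1758 genes in other long liver domains (0.853%, 0.478 to 1.40%) and in 133 of all 17274 (0.770%). In long regions of the other organs the shares were 0.719% in kidney, 0.589% in heart and 0.365% in lung. For the HNF4 letters CAAAGTCCA, on both strands, the shares were 1.21% (8 genes), 0.171% (3 genes) and 0.370% in the same 3 sets. For the C/EBP letters they were 12.3%, 8.87% and 9.24%, and for TATAAA on the gene's strand 8.02%, 5.35% and 8.42%. The intervals cover counting error only, and genes that share a domain or descend from 1 ancestor are not independent. In liver-only domains with at least 40 tags per kb, a bound added after the data were seen, the HNF1 letters stood in 9 of 158 promoters (5.70%), the C/EBP letters in 17.1% and TATAAA in 12.7%, while the HNF4 letters stood in 1 (0.633%). The median ratio of observed to expected CpG was 0.569 over the 661 promoters of liver-only domains, 0.715 for other long liver domains and 0.546 over all promoters. At 40 or more tags per kb it was 0.324 in liver-only domains and 0.666 in the others. Most promoters of liver-only domains thus held none of the HNF1 letters, as in the 200 bases of Azgp1, and a match is a description of letters and not of binding.

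**Figure D5:**
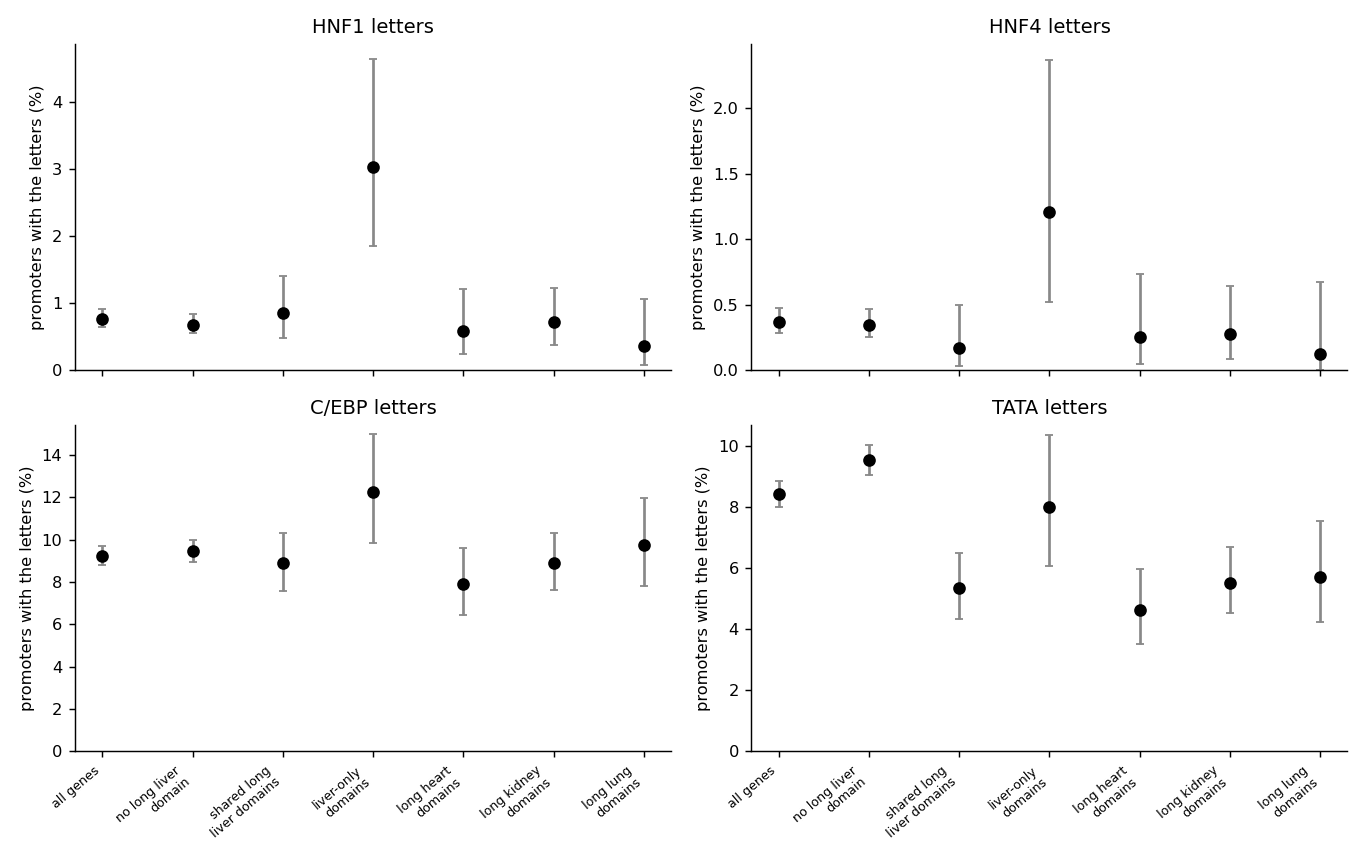
Points give the percent of promoters (250 bases before the start) holding the letters of HNF1, HNF4, C/EBP or TATA motifs in 7 sets of genes, with exact binomial 95% intervals that cover counting error only. For HNF1 the genes of liver-only domains lie at 3.03%, and the other 6 sets lie between 0.365% and 0.853%.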

How the data were processed

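Pol II ChIP-seq of 4 mouse organs was analysed from 1 region list per organ. The submitters' processing notes name Bowtie2 2.2.8, HOMER 4.8 and the build mm10. The authors stitched windows of 500 bp into regions at a Poisson p of 0.001, per the file headers, and no control library is named there. The headers also give a minimum distance of 1000 bp. Whether regions bridge windows below the threshold was not checked. The deposited signal is a tag count scaled to 10000000, per the file headers. The deposited score and the deposited clonal fold are the caller's own, and only the score was used, to rank liver regions. Tags per kb are the tag count over the region's length.

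Overlap code was written in Python 3.11.15 (pandas 2.3.3, scipy 1.17.1) and equalled per-base counts in 100% of 2000 simulated queries. Genes, promoters and microRNAs came from RefSeq tables of GRCm38.p6. Of 410 list symbols all matched, 1 through a synonym. Members, lists and rules were chosen with earlier results of these data known. Named domains were the 10 longest, the 10 with the most tags, the 10 densest and the 10 with the most genes, and of liver-only domains the 12 with the most tags and the 8 densest. Named list genes were the leading members by tag count of their domain and members outside long domains, and further example genes were picked with their values known. The alternatives were other lengths, overlaps, joins, scores and gene shares. Chromosomes Y and M were left out by the rule. Some genes and domains that these rules name are not reported here.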

Additional observations from a re-analysis of the deposited data

Results flagged for a closer look

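The liver list also holds 2 regions on the mitochondrial genome, which lie outside the chromosomes described. They held 3645 tags per kb, compared with at most 95.5 in the long domains, and made up 0.444% of all liver tags. No control library is named, and whether these tags come from Pol II was not tested. Each of the 2 regions is shorter than 10000 bp. They were singled out because their signal appears in data that the comparisons do not use. The list holds 6 regions on chromosome Y, the longest of 16777 bp.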

How the results depend on the processing

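Counts depended on the length and overlap chosen. At 5 kb there were 8839 long liver domains with a median of 23.1 tags per kb, and at 20 kb 1841 with 31.7, while the upper part of the list by score held 2828 with 27.6. Liver-only domains numbered 253 when a region of any length counted, 1312 when 5 kb sufficed in the other organs and 689 at 20 kb in liver. Domains joining 2 or more genes numbered 527 with 50% of each gene inside, 360 with whole genes, 787 at 20 kb and 2353 with genes of all types. Genes in long liver domains numbered 5060 at any overlap. In liver-only domains of at least 40 tags per kb, added after the data were seen, the HNF1, HNF4, C/EBP and TATA letters stood in 5.70%, 0.633%, 17.1% and 12.7% of promoters. Other alternatives stayed within 1.5 times: joining nearby liver regions gave 4958 domains, and liver-only domains numbered 1652 to 2550 under joining, equal numbers and 50% coverage. No paired analysis was possible because each organ has 1 list and no test was made. Without replicate lists, no difference between organs has a measured error, and a place without a region was not called, which does not show absence of polymerase.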
